A study of Mus musculus with 12 samples.

Results

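The MYC, MAX and MXD network was followed in mouse embryonic stem cells treated with auxin to deplete the ribosomal protein RACK1, and after auxin was withdrawn. Its 10 members were taken by gene symbol, as the genes named Myc, Mycn, Mycl, Max, Mxd1, Mxd3, Mxd4, Mxi1, Mnt and Mga, and all 10 were found once in each of the authors' 2 tables, among 18120 genes that both tables hold (18765 at 5 days and 18712 at 10 days). The cells were of the mouse E14 line and of genotype RACK1-AID/RPS26-Tir1 Ribo-Tweezer in all 4 groups, the DMSO controls included. In such cells RACK1 carries an auxin-inducible degron and the auxin receptor TIR1 sits on the ribosomal protein RPS26, so that auxin (indole-3-acetic acid, IAA) targets RACK1 protein for degradation. Poly(A) RNA of 3 libraries was sequenced for each of 4 groups, namely 5 days in IAA, 5 days in DMSO, 10 days after the withdrawal of a treatment of 5 days with IAA, and the DMSO control of that withdrawal. The labels number the libraries but name no separate cultures. The p-values therefore reflect library-to-library spread that could be technical. Nor do the labels say whether the line is 1 clone.

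MYC, MYCN and MYCL are basic helix-loop-helix leucine zipper factors that bind DNA only as dimers with MAX, at the E-box CACGTG, and there recruit acetyltransferases and elongation factors to activate genes of ribosome assembly, metabolism and the cell cycle. MXD1, MXD3, MXD4, MXI1 and MNT compete for MAX, bind the same sites and bring the SIN3 histone deacetylase complex, which represses them. MGA, the largest member, joins MAX in the Polycomb complex PRC1.6, which keeps germ line genes silent in embryonic stem cells, where MYC and MYCN are known for supporting growth and self-renewal. Only RNA was measured, and protein levels, which turn over fast for MYC, were not.

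The shared DNA contact of the family can be read in the coding sequences, shown here because it is what makes the members compete for 1 site. The stretch of 9 codons below was the single match in each listed transcript to the pattern of the basic region. Capitals mark codons 1, 5 and 9, which encode the histidine, glutamate and arginine that touch the E-box. The pattern itself required these residues, so that they are shared was set by the search. Sequences are from GENCODE M21 transcripts, 5′ to 3′.
Myc: CACaacgtcttgGAAcgtcagaggAGG
Mycn: CACaacatcctgGAGcgtcaacgcCGG
Mycl: CATaacttcttgGAAcgaaaaaggAGG
Max: CATaatgcactgGAAcgaaaacgtAGG
Mxd1: CACaatgaaatgGAAaagaacaggCGT
Mxd3: CACaacgagctgGAGaagcgcaggAGA
Mxd4: CACaacgaactaGAAaagcacagaCGA
Mnt: CACaacaaattgGAGaagaacaggAGG
Mga: CACactgccaatGAGcggcgtcggCGT
On GRCm38 the stretch lies within exon 3 of Myc at chr15:61989663-61989689 on the plus strand, of Mycn at chr12:12937219-12937245 on the minus strand, of Mycl at chr4:123000276-123000302 on the plus strand and of Max at chr12:76953232-76953258 on the minus strand. In Mxd1, Mxd3, Mxd4 and Mnt it is split between exons 3 and 4, and in Mga it lies in exon 20 at chr2:119958247-119958273 on the plus strand. Of its 27 bases, Mycl shared 22 with Myc and 20 with Max, while Mycn shared 20 with Myc and 17 with Max. Among the repressor genes, 21 bases of Mxd4, 21 of Mnt and 19 of Mxd3 were equal to Mxd1. No stretch is given for Mxi1, whose listed transcript version is not in that annotation.

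The family's own motif occurred in some of its promoters. A search for CACGTG, which reads the same on both strands, covered the window from 250 bases before to 50 after each RefSeq start site (GRCm38.p6), and 9 of the 10 members had a window. It found the motif in 3 of the 9, against 8.09% of the 27025 genes with a window and 7.15% of all 32851 windows. The 3 matches are shown with the motif in capitals.
Max: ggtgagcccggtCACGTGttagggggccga
Mxd4: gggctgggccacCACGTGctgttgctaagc
Mnt: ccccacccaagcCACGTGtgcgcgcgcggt
They lie at chr12:76962234-76962263 on the minus strand for Max, at chr5:34187912-34187941 on the minus strand for Mxd4 and at chr11:74830789-74830818 on the plus strand for Mnt. The motif began 3 bases before the start site of Max, 219 before that of Mxd4 and 123 before that of Mnt. The RNAs of these 3 genes did not pass the test in either comparison, and a match describes letters only.

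Effective depth per library averaged 23.3M reads in the 5-day table and 21.2M in the 10-day table (geometric means). The authors' deposited tables hold means and folds and no values of single libraries, so each group's level below was derived from the mean log2 CPM (CPM, read counts scaled to library size) and the log2 fold, and the spread is given as the SE implied by fold and t. A positive fold was read as higher with IAA, which the headers do not state. The targeted protein is not measured by RNA, and Rack1 mRNA checks no label. Of 10 embryonic stem cell markers 7 were called lower at 5 days in the authors' deposited table, Nanog among them at a log2 fold of -0.74 ± 0.06, beside 12.1% of all genes. With length and GC trends removed 5 of the 10 were called, and with the level trend removed as well 4, while the list's median went from -0.32 to -0.04. Of 9 measured fibroblast feeder markers none was called and only 3 had a mean log2 CPM of 0 or more, the highest 2.56. Their part in the results below was not tested. In bulk RNA, fewer cells of a type and less RNA per cell cannot be told apart.

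After 5 days in IAA 4 of the 10 members were called. Mycl and Mycn rose, and the repressor genes Mxd3 and Mxd1 fell. In the authors' deposited limma result at a Benjamini-Hochberg (BH) adjusted p under 0.05, 25.5% of all genes were called, 13.5% higher and 12.1% lower. The members' 4 of 10, with 2 in each direction, are to be read against these shares. All 10 members had a mean log2 CPM of at least 0. When only the 12821 genes at that level were tested, 4662 were called, 2321 higher and 2341 lower, a larger share than over all genes. Of the members 2 were then higher and 3 lower. The members' counts are given beside these shares and not as a trait of the network. The median log2 fold of the 10 members was -0.06, and that of all genes 0.01. At 10 days after withdrawal 0 of 10 members were called in the authors' deposited limma result, as was 0% of all genes. At an unadjusted p under 0.05, 805 of 18712 genes passed there, and no member did.

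**Figure D1:**
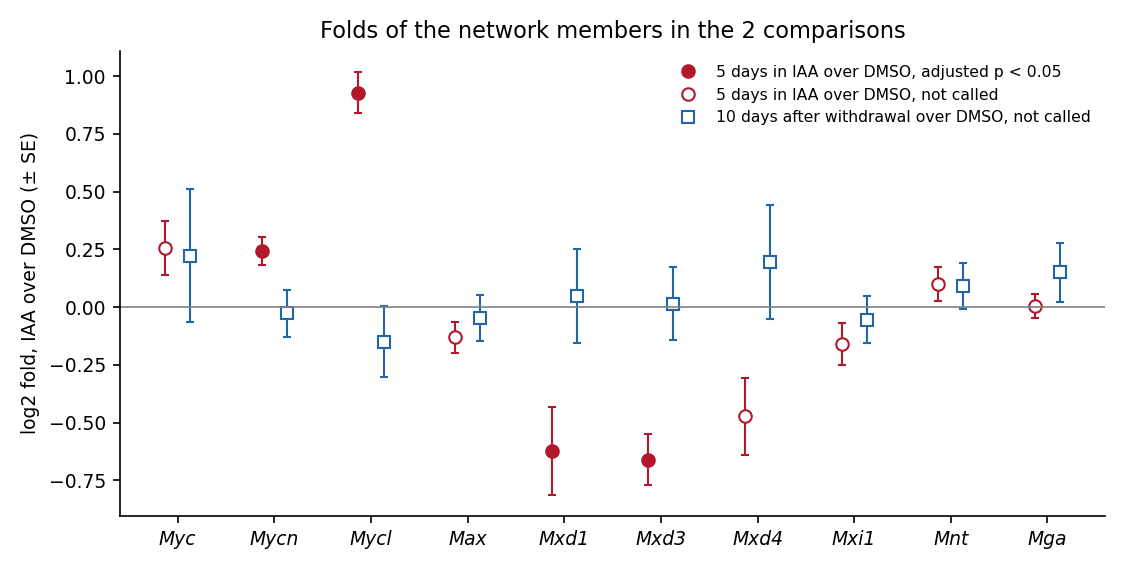
The y axis gives the log2 fold of IAA over DMSO for each of the 10 members, with circles for 5 days, squares for 10 days after withdrawal and bars for the implied SE (3 libraries per group); filled points passed a BH adjusted p under 0.05. Mycl stands at 0.93 and Mxd3 at -0.66 at 5 days, and every square is open.

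Mycl carried the largest change of the network. The gene, which encodes L-MYC, the paralog with the weakest transforming activity, lies at chr4:122995652-123002485 on the plus strand of GRCm38, and its listed transcript has 3 exons. Its derived level was 3.79 log2 CPM in DMSO and 4.72 in IAA at 5 days. The log2 fold of Mycl in the authors' deposited 5-day table was 0.93 ± 0.09 (SE, 3 libraries per group; limma adjusted p = 1.24e-05), or 1.90-fold. By p this was rank 142 of 18765 genes. Its interval (95%, from the implied SE) ran from 0.74 to 1.12. Mycl no longer stood above its control 10 days after withdrawal, at 3.73 log2 CPM against 3.88 in DMSO. The log2 fold in the authors' deposited 10-day table was -0.15 ± 0.15 (limma adjusted p = 0.901), with an interval from -0.47 to 0.17. The difference between the 2 log2 folds of Mycl was 1.08 ± 0.18 and passed the z test (BH adjusted p = 1.60e-07 over 18120 genes), as did 10.4% of these genes.

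Mycn, the most abundant member in the 5-day table, rose by a small, well resolved amount. It encodes N-MYC, lies at chr12:12936093-12941914 on the minus strand, and its listed transcript has 3 exons. Its derived level was 8.60 log2 CPM in DMSO and 8.84 in IAA at 5 days, which placed its mean at rank 354 of all genes. The log2 fold of Mycn in the authors' deposited 5-day table was 0.24 ± 0.06 (limma adjusted p = 0.0101), 18.2% higher. After withdrawal the levels were 7.16 in DMSO and 7.14 in IAA, and the authors' deposited 10-day table gives a log2 fold of -0.03 ± 0.10 (limma adjusted p = 0.963). The difference between the 2 folds, 0.27 ± 0.12, did not pass (z test, BH adjusted p = 0.137).

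Myc itself did not pass the test at either time. It lies at chr15:61985391-61990374 on the plus strand. Its derived level was 4.90 log2 CPM in DMSO and 5.15 in IAA at 5 days, and the log2 fold in the authors' deposited table was 0.26 ± 0.12 (limma adjusted p = 0.127, unadjusted p = 0.0452). That size is close to that of Mycn, but the implied SE is larger, and the interval ran from 0.01 to 0.51. With the trend of folds on length, GC content and level removed, the log2 fold of Myc was 0.38 and passed (adjusted p = 0.0320). Myc passed under none of the other settings at 5 days. That removal took the length and GC content of the listed Myc transcript, 1365 bases, all coding, where the longest Myc transcript of M21 has 2338. The log2 fold after withdrawal was 0.22 ± 0.29 (limma adjusted p = 0.909) in the authors' deposited table, where the mean level of Myc corresponds to about 95.3 reads per library, and its interval from -0.39 to 0.83 does not exclude the 5-day size.

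Max, which encodes the shared partner, was not called at either time. The gene lies at chr12:76937269-76962201 on the minus strand. The derived levels of Max were 6.26 log2 CPM in DMSO and 6.13 in IAA at 5 days, and 6.09 and 6.04 at 10 days. The log2 folds in the authors' deposited tables were -0.13 ± 0.07 (limma adjusted p = 0.176) and -0.05 ± 0.10 (0.945). Their intervals, -0.27 to 0.01 and -0.26 to 0.17, bound a change of Max RNA more tightly than that of any MXD gene. With length, GC and level trends removed the 5-day fold of Max was 0.02, above 0.

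Among the repressors the MXD genes carried the decreases. Mxd3, whose protein is known from proliferating progenitors, lies at chr13:55325168-55329823 on the minus strand. Its derived level was 3.73 log2 CPM in DMSO and 3.07 in IAA at 5 days, and the log2 fold in the authors' deposited table was -0.66 ± 0.11 (limma adjusted p = 0.000792), 36.7% lower. At 10 days it stood at 3.29 in DMSO and 3.31 in IAA, and the log2 fold in the authors' deposited table was 0.01 ± 0.16 (limma adjusted p = 0.989). The difference between the folds, -0.67 ± 0.19, passed the z test (BH adjusted p = 0.00847). The last exon of Mxd3 shares 105 bases with Prelid1 on the opposite strand. Whether the counting used strand is not given in the sources used here, so Mxd3 counts may hold reads of Prelid1. The mean level of Prelid1 was 8.30 log2 CPM and its log2 fold -0.11 ± 0.05 (limma adjusted p = 0.110) in the authors' deposited 5-day table.

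Mxd1, a repressor gene known for its induction when cells leave the cycle to differentiate, lies at chr6:86647042-86669161 on the minus strand. It fell from a derived 2.52 log2 CPM in DMSO to 1.90 in IAA at 5 days, a log2 fold of -0.62 ± 0.19 (limma adjusted p = 0.0274), or 35.0% lower, in the authors' deposited table. With about 108 reads per library this fold has the widest SE of the network at that time. At 10 days the levels were 2.63 in DMSO and 2.68 in IAA, and the authors' deposited table gives a log2 fold of 0.05 ± 0.20 (limma adjusted p = 0.966). The difference of the folds of Mxd1 had the same size as that of Mxd3, -0.67 ± 0.28, and did not pass (z test, BH adjusted p = 0.105).

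Mxd4 lay just outside the threshold. It is found at chr5:34173883-34187720 on the minus strand, and had the fewest reads of the members at 5 days, about 91.1 per library. The derived level was 2.21 log2 CPM in DMSO and 1.74 in IAA at 5 days, and the log2 fold in the authors' deposited table was -0.47 ± 0.17 (limma adjusted p = 0.0527). Leaving out genes with a mean log2 CPM under 0 brought it to an adjusted p of 0.0400, so its call turns on the genes tested beside it. At 10 days its log2 fold was 0.19 ± 0.25 (limma adjusted p = 0.909) in the authors' deposited table, and the difference, -0.67 ± 0.30, did not pass (z test, BH adjusted p = 0.143). The antisense gene Gm42846 shares 1001 bases with Mxd4, and the strand caveat of Mxd3 holds here too.

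Mxi1 and Mnt, the repressors with the highest log2 CPM, were not called. Per kilobase of listed transcript, Mxi1 stood below Mxd3 in 5-day DMSO cells, at 6.77 against 10.0 CPM. Mxi1, at chr19:53310518-53375810 on the plus strand, had derived levels of 5.08 log2 CPM in DMSO and 4.92 in IAA at 5 days, and the authors' deposited table gives a log2 fold of -0.16 ± 0.09 (limma adjusted p = 0.233). The protein-coding gene Gm10197 shares 201 bases with Mxi1 on the opposite strand, within an exon in M21, so the strand caveat holds for Mxi1 as well. Its 10-day log2 fold there was -0.05 ± 0.10 (limma adjusted p = 0.932). Mnt, a repressor gene known to be active in most cell types, lies at chr11:74830920-74845725 on the plus strand. Its log2 folds in the authors' deposited tables were 0.10 ± 0.07 at 5 days (limma adjusted p = 0.371) and 0.09 ± 0.10 at 10 days (0.908), and the 5-day sign turned, to -0.05, with length and GC trends removed.

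Mga showed no detectable change, and its data bound one closely at 5 days. The gene lies at chr2:119897228-119969581 on the plus strand and its listed transcript has 24 exons. Its derived level was 7.94 log2 CPM in both groups at 5 days, and the log2 fold in the authors' deposited table was 0.00 ± 0.05 (limma adjusted p = 0.959), with an interval from -0.11 to 0.12. The 10-day log2 fold was 0.15 ± 0.13 (limma adjusted p = 0.901) in the authors' deposited table, with a wider interval from -0.12 to 0.42.

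The order of the members can be set out only per length of the listed transcript, and as a description. In 5-day DMSO cells the derived level per kilobase was 145 CPM for Mycn, 39.5 for Max, 21.8 for Myc, 19.4 for Mnt, 17.6 for Mga, 10.0 for Mxd3, 6.77 for Mxi1, 4.21 for Mycl, 1.23 for Mxd1 and 1.20 for Mxd4. Myc and Mnt, and Mxd1 and Mxd4, did not differ by more than 2 SE, and the other neighbours did. In 5-day IAA cells Mycl, at 8.01 CPM per kilobase, stood above Mxd3 at 6.33 and Mxi1 at 6.06, the latter pair within 2 SE of each other. The value of Myc depends on its listed transcript, which has 1365 bases, all coding. Against the longest Myc transcript of M21, 2338 bases, the level of Myc would be 12.7 CPM per kilobase, below that of Mga.

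Summed over roles, the balance of RNAs leaned further to the MYC paralogs at 5 days in IAA, again as a description with no test. The 3 paralogs came to 171 CPM per kilobase in DMSO and 205 in IAA, and Mycn made up 84.8% and 83.4% of these sums. MXD1, MXD3, MXD4, MXI1 and MNT together came to 38.6 in DMSO and 34.9 in IAA. The ratio of paralog to repressor RNA was thus 4.42 in DMSO and 5.89 in IAA, and that of paralog to Max RNA 4.33 and 5.69. The paralog sums take the listed Myc length of 1365 bases, and the strand caveat of Mxd3, Mxd4 and Mxi1 holds for the repressor sums. After withdrawal the corresponding ratios were 2.10 in DMSO and 2.02 in IAA to the repressors, and 1.75 and 1.78 to Max.

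**Figure D2:**
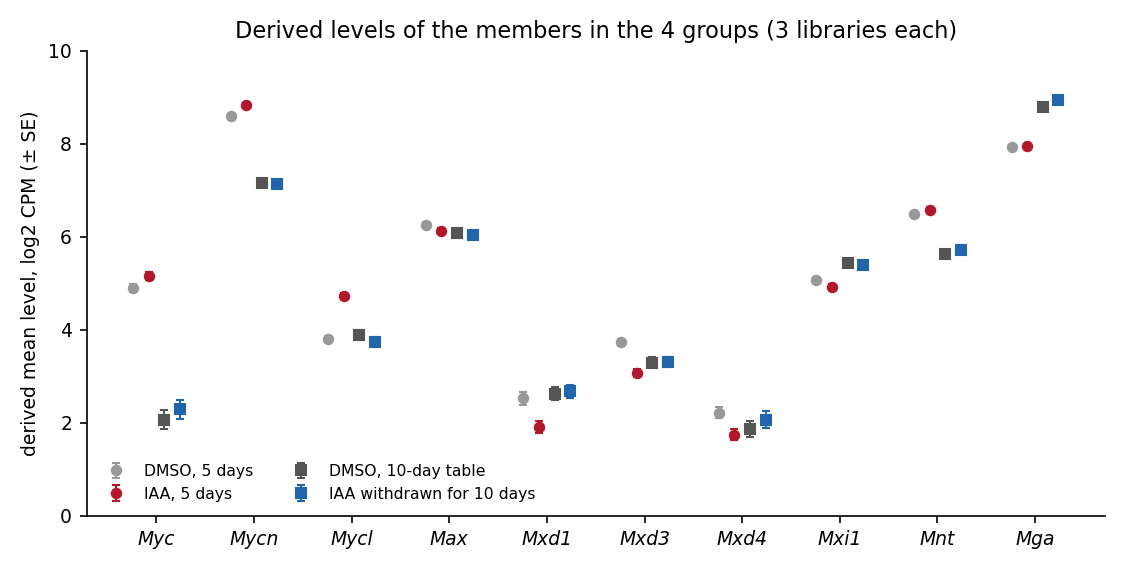
The y axis gives the derived mean level of each member in log2 CPM, not divided by length, in the 4 groups of 3 libraries; bars are the implied SE of a group level. Mycl is high in the 5-day IAA group alone, and Myc and Mycn sit lower in both groups of the 10-day table.

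The widest contrast in the network lay between the tables, not within them. The tables were normalized separately, and time, passage, handling and table cannot be told apart, so no test was made. Over 12431 genes at or above 0 in mean log2 CPM in both, the mean in the 10-day table minus that in the 5-day table had a median of 0.03 and an SD of 0.66. For Myc it was -2.85, which is 7.20-fold lower, and only 10 of the 12431 genes, Myc included, were as low or lower. Mycn lay 1.57 log2 CPM lower (a difference of -1.57), which 157 genes reached, and Mnt was at -0.85. Mga went the other way at 0.93, a difference that 977 genes reached. Between the DMSO controls alone the difference was -2.83 ± 0.22 for Myc, -1.43 ± 0.08 for Mycn and 0.85 ± 0.10 for Mga. For Myc and Mycn the gap between the tables thus exceeded their own 5-day folds, and it was there without IAA. Mycl had 3.79 and 3.88 log2 CPM in the 2 DMSO controls, a difference of 0.09 ± 0.12. Per kilobase, Myc took place 8 of 10 in the 10-day DMSO group with 3.06 CPM, and Mga, at 31.8, stood within 2 SE of Max at 35.0.

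**Figure D3:**
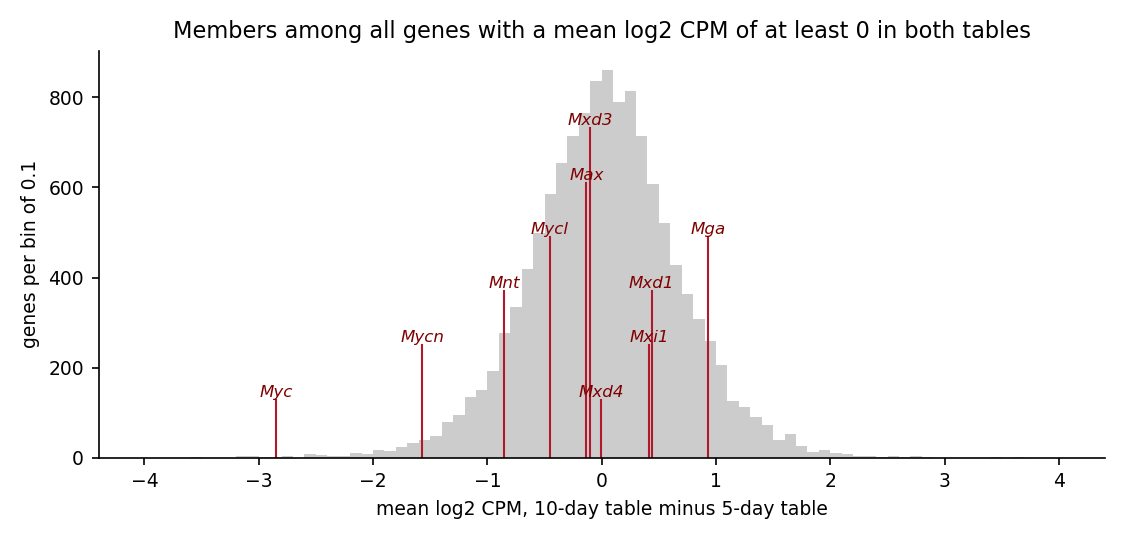
Grey bars count genes by the mean log2 CPM of the 10-day table minus that of the 5-day table, in bins of 0.1, for 12431 genes; red lines mark the 10 members, and the height of a line only separates the names. Myc at -2.85 and Mycn at -1.57 lie in the lower tail and Mga at 0.93 in the upper part.

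The 3 genes nearest in pattern to each of Mycl and Mxd3 were taken over the 4 derived group levels. Among 9062 candidates at or above 3 in mean log2 CPM, the nearest to Mycl by Euclidean distance, with each gene's levels centred on their mean, were Ap3b2, a subunit of a vesicle adaptor complex (distance 0.05), Syt11, a synaptotagmin (0.05), and Perp, a membrane protein of cell junctions (0.12). Their log2 folds in the authors' deposited 5-day table were 0.93, 0.94 and 1.01. The nearest to Mxd3 were Slc47a1, an organic cation exporter (0.04), Mical1, an actin-oxidizing enzyme (0.07), and Napsa, an aspartic protease (0.07), at -0.69, -0.63 and -0.69 in that deposited table. Only 4 levels enter the measure, and 3 nearest genes exist for any gene. The 5-day levels are among the 4, so the like 5-day folds follow from the choice.

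The listed transcripts of the members differed in the parts that precede translation. Upstream AUGs, which can capture scanning ribosomes before the main start codon, were listed by the authors' deposited tables as 1 for Mycn, Mycl and Mxi1, 3 for Mga and 0 for Max, Mxd1, Mxd3, Mxd4 and Mnt. At least 1 is listed for 54.4% of genes with a 5′ untranslated part. The folding energy per base of that part, a score of the authors' deposited table whose unit is not named and which is lower for stronger predicted structure, was -0.60 for Mycl, lower than in 98.6% of genes. It was -0.59 for Mxd4 and -0.64 for Mxi1, lower than in 98.3% and 99.6%. For Mxd3 it was -0.36 and for Mga -0.32, lower than in 49.8% and 35.2% of genes. For Mxd1 it was -0.50 and for Mnt -0.47, lower than in 89.3% and 83.1%. It was -0.39 for Mycn and -0.31 for Max, lower than in 60.6% and 34.0%. The listed transcript of Myc has no untranslated part, as 1.47% of coding transcripts do, and its coding part opens with CTG in place of ATG, the start codon of the longer MYC protein form.

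**Figure D4:**
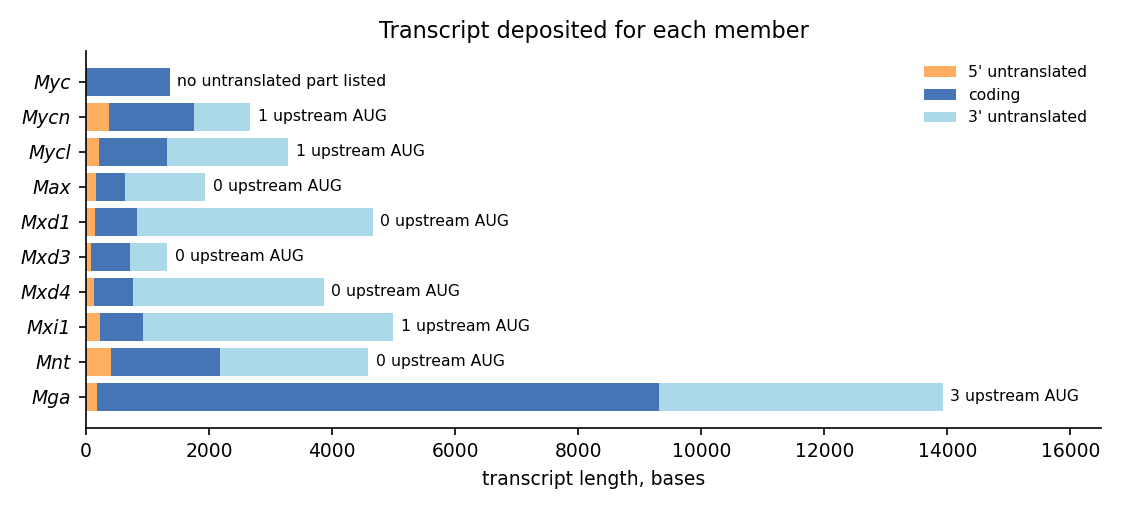
Bars give the length in bases of the 5′ untranslated, coding and 3′ untranslated part of the transcript deposited for each member, with the listed count of upstream AUGs beside them. Mga is the longest at 13931 bases, and Myc holds a coding part of 1365 bases only.

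The genes that work with the network were taken from 8 lists, which hold 134 genes. At 5 days 15 of 16 genes on the germ line list, and every gene of the other lists, had a mean log2 CPM of at least 0. When only the 12821 genes at that level were tested, 4662 were called, a larger share than over all genes. The MLX branch list holds Mlx, Mlxip and Mlxipl, of a parallel set of MAX-like dimers that sense glucose, with Txnip and Arrdc4 beside them. On it 0 of 5 genes were called at 5 days, beside the 25.5% called over all genes (13.5% higher and 12.1% lower). The counts of each list are to be read with these shares. With length and GC trends removed, 2394 of all 18765 genes were called higher and 2132 lower. With the level trend removed as well, 2658 were higher and 1654 lower. List counts under trend removal are to be read with these numbers. Of 20 cofactors of MYC, 4 were called higher and 5 lower, together 45% of the list, at a median log2 fold of -0.07 against 0.01 over all genes. In the authors' deposited 5-day table Wdr5, which anchors MYC to chromatin, stood at -0.43 ± 0.05 (limma adjusted p = 2.60e-05). The paired ATPases Ruvbl1 and Ruvbl2 stood at -0.37 ± 0.06 and -0.24 ± 0.04, and Actl6a, an actin-like subunit of remodelling complexes, at -0.23 ± 0.05 in the same deposited table. The 4 higher cofactors, chosen here after their values were seen, were the acetyltransferases Crebbp (0.29) and Ep300 (0.18), the elongation kinase Cdk9 (0.18) and Hcfc1 (0.16) in the authors' deposited table. With length and GC trends removed 1 cofactor was higher and 6 lower. With the level trend removed as well, 3 were higher and 2 lower, and Ruvbl1 (-0.17, adjusted p = 0.0707) and Actl6a (-0.06, 0.381) lost their calls. Crebbp, Ep300 and Hcfc1 lost theirs once length and GC trends were taken out (adjusted p = 0.0724, 0.332 and 0.536), and Hcfc1 also with the median fold set to 0 (0.0631) and with all 3 trends removed (0.0565).

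The SIN3 corepressor, which MXD proteins recruit, had 0 genes higher and 4 lower of 17, at a median log2 fold of -0.15. The called share at 5 days, 23.5%, is near that of all genes, 25.5%. All 17 had a mean log2 CPM of at least 0, however, and of the genes at that level a larger share was called, 4662 of 12821. Beside that share the list is lower. The authors' deposited 5-day table gives log2 folds of -0.27 ± 0.06 for Sap30, -0.20 ± 0.05 for the deacetylase Hdac1, -0.19 ± 0.04 for the histone chaperone Rbbp4 and -0.19 ± 0.05 for the scaffold Sin3a. With length, GC and level trends removed 1 of the 17 was higher and 2 lower at 5 days, at a median of -0.05. Sap30 (-0.01, adjusted p = 0.947), Hdac1 (-0.04, 0.644) and Rbbp4 (-0.12, 0.0542) then lost their calls, Sap30 also with length and GC trends alone (-0.12, 0.139). Of 17 genes that act on the stability of MYC protein, 2 were higher and 2 lower in the authors' deposited table, again 23.5% beside 25.5% of all genes. The kinase gene Pim1 (0.30 ± 0.05) and the scaffold gene Axin1 (0.26 ± 0.06) rose, and the phosphatase subunit genes Ppp2r5a (-0.30 ± 0.05) and Ppp2r1a (-0.15 ± 0.05) fell. With length, GC and level trends removed 4 of the 17 were higher and 1 lower, and Ppp2r1a was at -0.02 (adjusted p = 0.822).

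Of the 10 PRC1.6 partners of MGA, 2 rose and 0 fell, which is 20% beside 25.5% of all genes, or 13.5% for higher calls. With length, GC and level trends removed 5 of the 10 were higher and 0 lower, where 2658 of all 18765 genes were higher and 1654 lower. The authors' deposited 5-day table puts E2f6, the DNA-binding E2F of that complex, at 0.53 ± 0.07 (limma adjusted p = 0.000203), and Yaf2, a RING1-binding subunit, at 0.67 ± 0.12 (0.00115). For both, the difference from the 10-day fold passed the z test (BH adjusted p = 0.0119 for E2f6 and 0.0470 for Yaf2). That test takes the SEs as known, and fewer genes passed with Welch-Satterthwaite degrees of freedom. Yaf2 lay close to the threshold, so its call may not hold there. The partners Pcgf6 and L3mbtl2, which define the complex, stood at -0.03 ± 0.06 and -0.07 ± 0.06 in the authors' deposited table and were not called. Germ line genes silenced by PRC1.6 moved in both directions, 3 higher and 5 lower of 16, together 50% beside 25.5% of all genes. Stra8, the retinoic acid-induced gene of meiotic entry, stood at -1.43 ± 0.19, Zcwpw1, a histone reader of meiosis, at -0.65 ± 0.07, Stk31 at -0.51 ± 0.10 and Meioc, a meiotic RNA regulator, at 0.69 ± 0.11 in the authors' deposited 5-day table. For the germ line list the 10-day table minus the 5-day table had a median of 0.81 in mean log2 CPM, with 14 of 16 above 0, beside the median of 0.03 over all genes.

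Genes that MYC is known to activate did not share a direction at 5 days. Of 40, 3 were called higher and 8 lower in the authors' deposited table, together 27.5% of the list beside 25.5% of all genes, and the median log2 fold was -0.05. The serine pathway enzyme gene Shmt2 fell by 0.56 ± 0.07 on the log2 scale, the mitochondrial chaperonin gene Hspe1 by 0.41 ± 0.06, the transferrin receptor gene Tfrc by 0.40 ± 0.07 and the helicase gene Eif4a1 by 0.20 ± 0.04 in the authors' deposited table. The 3 higher genes, chosen after their values were seen, were the polyamine enzyme gene Odc1 (0.26), the nucleolar methyltransferase gene Nop2 (0.24) and the pyrimidine enzyme gene Cad (0.13) in the authors' deposited table. The split turned with the scaling. After removal of length, GC and level trends, 9 of the 40 were higher and 2 lower, and the median was 0.06. Over all genes that removal gave 2658 higher and 1654 lower calls, against 2524 and 2265 as deposited. The median log2 fold of all genes was then 0.03, so the list moved the same way as all genes. Eif4a1 (-0.05, adjusted p = 0.414) and Hspe1 (-0.05, 0.644) then lost their calls, Hspe1 also with length and GC trends alone (-0.17, 0.0637). Cad lost its call with the median fold set to 0 (adjusted p = 0.0630) and with all 3 trends removed (0.119), and its fold turned, to -0.0052, with length and GC trends removed. Of 9 genes that MYC represses, 1 was called in the authors' deposited table, the kinase inhibitor gene Cdkn2b at 1.21 ± 0.31 (limma adjusted p = 0.0104), from a mean level of 0.12 log2 CPM. Under either trend removal 3 of the 9 were higher and 0 lower.

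No gene of the 8 lists was called in the authors' deposited 10-day table. The log2 folds of 37 of the 40 MYC-activated genes were below 0 there, at a median of -0.10. Of all genes at or above 6 in mean log2 CPM, 59.4% were below 0, and with length, GC and level trends removed 30 of the 40 were, at a median of -0.04. Between the tables, the MYC-activated genes had a median of -0.33 in mean log2 CPM, 9 of 40 above 0, where 48.0% of all genes were lower. Some other lists shifted the same way, with a median of -0.38 and 5 of 17 above 0 for MYC turnover. The PRC1.6 partners had -0.25 and 3 of 10 above 0, and the MYC cofactors -0.17 and 5 of 20. Others did not, as the MYC-repressed genes had a median of 0.55 with 5 of 9 above 0, and the MLX branch 0.28 with 3 of 5. The germ line list, given above, was also higher, and the SIN3 list had a median of -0.003 with 8 of 17 above 0. The same limit holds as for the members, since time and table cannot be told apart.

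**Figure D5:**
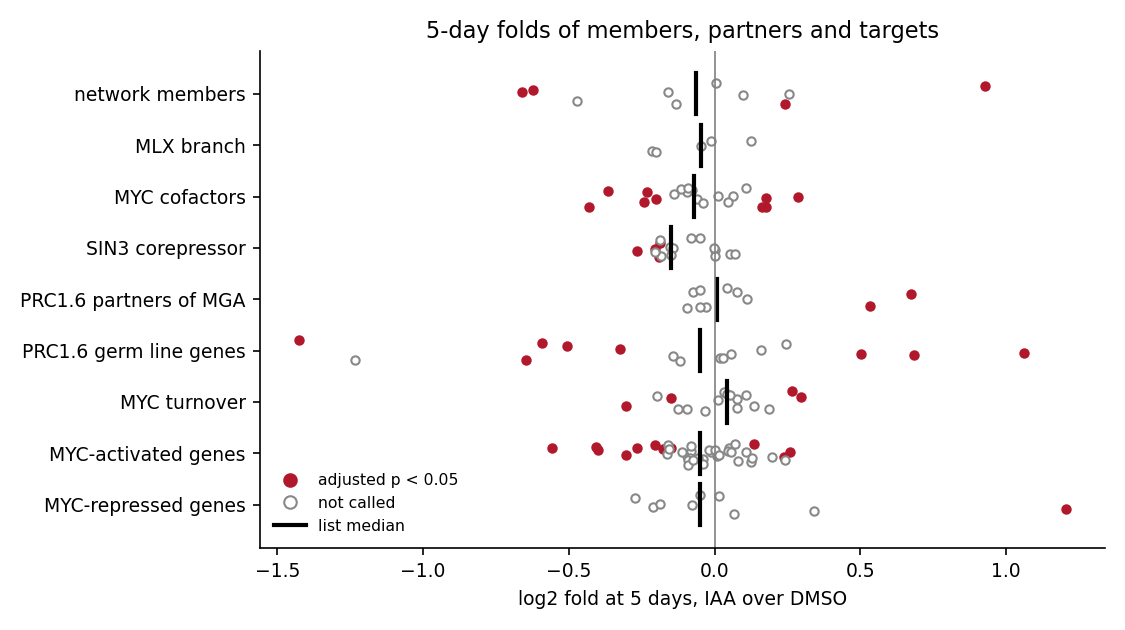
The x axis gives the log2 fold of IAA over DMSO at 5 days for each gene of the network and of the 8 lists; filled points passed a BH adjusted p under 0.05 and black bars are list medians. The SIN3 list has its 4 called genes below 0, and the PRC1.6 partners have E2f6 and Yaf2 above 0.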

How the data were processed

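Poly(A) RNA of 12 libraries was compared in 2 designs of 6. The authors deposited 1 limma result table per design, per the file headers, with the log2 fold, the mean log2 CPM, the moderated t and log-odds as scores, and the p-value with its BH adjusted value. The authors' tables further give transcript part lengths, the upstream AUG number, the GC content as a deposited fraction and the folding energy as a score. The aligner, counter, genome build and limma version were not given in the sources used here. Each table had 1 emptied row and 27 symbols turned into dates, which were restored through gene IDs.

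The planned count test needs values of single libraries, so the authors' limma result was used as deposited. The SE is the size of fold over t, with 13.4 and 15.2 degrees of freedom recovered from t and p. Levels are the mean log2 CPM plus or minus an even share of the fold. Folds of the 2 tables, which share no library, were compared by a two-sided z test, BH adjusted. Trends were removed with splines of 4 degrees of freedom (Python 3.11.15, scipy 1.17.1, patsy 1.0.2), and the procedures were tested on simulated data. Depth was recovered from the values of genes with 1 read in 1 library, taking a prior count of 0.5.

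The sign of the fold was checked over 4772 genes called at 5 days. A change at 5 days adds 0.5 of its fold to the mean of the 5-day table, and the 5-day mean minus the 10-day mean had a slope of 0.533 ± 0.0114 (SE) on the fold. The check takes the DMSO controls as alike and genes as independent. Coordinates are from GENCODE M21 on GRCm38, 1-based, and the authors' build may differ.

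The members and lists were chosen with earlier results of these data known. The text names all 10 members and, from each list, the called genes with the 4 largest t at 5 days and any called at 10 days, and the 3 genes most like each of the 2 members with the smallest 5-day p. Genes named outside this rule are marked as such or serve as context. The feeder markers were Col1a1, Col1a2, Col3a1, Dcn, Lum, Postn, Thy1, Pdgfra, Pdgfrb and Twist2. Alternatives were another threshold, a level filter, a median fold of 0, trend removal and Welch-Satterthwaite degrees of freedom.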

Additional observations from a re-analysis of the deposited data

Results flagged for a closer look

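The effect of IAA differed between the 2 times for 2 of the 10 members, by the z test of the difference over all 18120 genes. For Mycl the 5-day fold exceeded the 10-day fold by 1.08 on the log2 scale (SE 0.18, BH adjusted p = 1.60e-07). For Mxd3 the difference was -0.67 (SE 0.19, BH adjusted p = 0.00847). Both passed under each alternative that was run for this test. Single libraries that stand apart could not be looked for, since the tables hold no values of single libraries.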

How the results depend on the processing

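No paired analysis was possible because the tables hold comparisons and no values of single libraries. For the same reason leaving out a replicate, DESeq2 and edgeR were not run. At an adjusted p under 0.01, 2789 genes and 2 members, Mycl and Mxd3, were called at 5 days, since Mycn (0.24, adjusted p = 0.0101) and Mxd1 (-0.62, 0.0274) missed it. The difference between the comparisons was called for 1257 genes with Welch-Satterthwaite degrees of freedom. Mxd4 passed at 0.1, with the level filter, with the median set to 0 and under both trend removals (adjusted p 0.0112 to 0.0469 apart from the first). With length and GC trends removed the fold turned for Max (0.022), Mga (-0.016), Mnt (-0.00046) and Mxd1 (-0.0032) at 10 days, for Mga (-0.079) and Mnt (-0.0463) at 5 days and for the difference of Mnt (-0.0458). With the level trend removed as well it turned for Max (0.017 at 5 days, 0.052 at 10 days), Mxd1 (-0.037) and Mycn (0.012) at 10 days. With the median at 0 it turned for Mga at 5 days (-0.0084) and the difference of Mnt (-0.0063). None of these turned folds of members was called under either setting. Of the listed genes called at 5 days, Cad turned with length and GC trends removed (-0.0052), and Cdk4 (0.014) and Phb2 (0.040) with the level trend removed as well. The causes were not tested.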
